A study of Mus musculus with 33 samples.

Results

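Nanog gene body guide RNAs (gRNAs) were the 512 library gRNAs whose target interval has its midpoint in chr6:122709490-122714633 (mm10), out of 3918 gRNAs in the Nanog library and 15672 listed over the 4 gRNA libraries of the series. They were chosen by position alone. The interval starts more than 2 kb from the annotated 5' end of Nanog at 122707489 and runs to its annotated 3' end at 122714633, on the plus strand of chromosome 6 (RefSeq gene span, 7145 bp). The series mutated DNA with CRISPR/Cas9 in cultured mouse embryonic stem cells, which can form all tissues of the embryo. It asks where mutations around a gene are over-represented in cells that lost the signal of a GFP placed at that gene. The libraries used here are 2 of bulk (unsorted) cells and 2 of cells sorted as GFP-negative. All 4 came from a line whose Nanog carries GFP at its C-terminus and whose ROSA26 locus holds a placeholder guide, and all were grown with serum, LIF, GSK-3 inhibitor XV and UO126.

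Nanog is a homeobox transcription factor that helps keep embryonic stem cells self-renewing, and its level is known to vary between single cells in culture. Cas9 cuts the DNA where its gRNA pairs, and imperfect repair leaves small insertions or deletions. With GFP joined to the C-terminus, a mutation that shifts the reading frame of a coding exon can remove GFP together with the protein, whereas one within an intron or beyond the stop codon leaves the frame as it is. A gRNA that lowers the reporter should therefore take more of the counts after sorting than before it. The annotation used gives the span of the gene without exons, so gRNAs are described by position and not as coding, intronic or UTR. The count tables name gRNAs by interval only, and no gRNA sequence is printed.

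Total gRNA counts were 69662 and 62654 in bulk replicates 1 and 2, and 142821 and 196665 in GFP-negative replicates 1 and 2. Of the whole library, 1619 and 1612 gRNAs had a count in bulk and 820 and 817 in GFP-negative cells. The placeholder guide, left out of these totals, took 0.633% and 0.663% of bulk counts and 0.0357% and 0.0386% of GFP-negative counts. Over the 1674 gRNAs with any count, log2 CPM (counts divided by the library total on a fixed common scale, plus 1) had a Pearson correlation of 0.45 between the bulk libraries and 0.26 between the GFP-negative libraries. The labels do not state whether the replicates are separate cultures. The p-values below therefore cover the spread between these libraries, which may be technical.

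Taken as 1 group, body gRNAs did not separate GFP-negative from bulk libraries. The share was 9.05% and 10.9% in bulk replicates 1 and 2, and 9.98% and 17.2% in GFP-negative replicates 1 and 2. GFP-negative replicate 1 lay between the bulk libraries and GFP-negative replicate 2 above both, so the populations overlapped. The mean went from 9.95% ± 1.28 to 13.6% ± 5.12 (SD, n = 2 each), a log2 ratio of 0.45. A 2-sided exact permutation test over libraries gave p = 0.667, and 2 libraries against 2 cannot go below p = 0.333. This test ignores the replicate numbers. Within them the log2 ratio was 0.14 in replicate 1 and 0.67 in replicate 2, above 0 in both, and with GFP-negative replicate 2 left out it was 0.0041. A share is relative, so more counts of some gRNAs and fewer of the others cannot be told apart.

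The 485 gRNAs within 2 kb of the Nanog 5' end, on either side of it, separated the populations where body gRNAs did not. They are called promoter gRNAs here, although they include those in the first 2 kb of the gene itself. Promoter gRNAs took 9.29% and 9.84% of bulk counts and 18.3% and 17.3% of GFP-negative counts (log2 ratio 0.89), with both GFP-negative libraries above both bulk libraries. The difference between body and promoter gRNAs was nevertheless within the spread of these libraries. The body share divided by the promoter share was 0.974 and 1.10 in bulk and 0.546 and 0.996 in GFP-negative cells (log2 ratio −0.43, 2-sided exact permutation p = 0.667). Within replicate numbers this ratio was lower in GFP-negative cells both times, by a log2 ratio of −0.84 in replicate 1 and −0.15 in replicate 2. It was −0.06 when GFP-negative replicate 1 was left out and −0.93 when replicate 2 was. Against the 10 GFP-targeting gRNAs, the positive controls of the screen, the gap was wide. These took 0.564% and 0.575% of bulk and 10.2% and 12.1% of GFP-negative counts, and the body share divided by theirs went from 16.0 and 18.9 to 0.982 and 1.42 (log2 ratio −3.86, exact permutation p = 0.333, the smallest possible). The 2911 gRNAs at all other positions took 81.1% and 78.7% of bulk and 61.6% and 53.4% of GFP-negative counts. The body share divided by that of these other positions was 0.112 and 0.138 in bulk and 0.162 and 0.323 in GFP-negative cells, with no overlap (log2 ratio 0.96, exact permutation p = 0.333). With GFP-negative replicate 2 left out the log2 ratio was 0.38.

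Most body gRNAs were never counted. Of the 512, 193 (37.7%) had a count in some library and 319 had none, against 1674 of 3918 (42.7%) over the whole library. Bulk detected 191 and 184 of them and shared 182, which is 95.3% of the first list and 98.9% of the second. GFP-negative cells detected 94 and 90 and shared 53, or 56.4% and 58.9% of the lists. No body gRNA, and none in the whole library, had a count in GFP-negative cells without one in bulk. Conversely, 62 body gRNAs counted in bulk had none in either GFP-negative library. These 62 are 32.1% of the counted body gRNAs, beside 31.5% over all counted gRNAs of the library.

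Detection followed the length of the target interval. Intervals span 22 or 23 bp when both ends are counted. Of the 81 body gRNAs with a 22-bp interval, 80 (98.8%) had a count, whereas of the 431 with a 23-bp interval 113 (26.2%) did. Over all positions in the Nanog library the shares were also 98.8% (560 of 567) and 33.1% (1105 of 3341). In bulk the 81 shorter ones held 45.3% of body counts in each replicate. In GFP-negative cells they held 59.6% in replicate 1 and 25.1% in replicate 2, one above and one below the bulk value (exact permutation p = 1). Crowding went with detection too. Of the 227 body gRNAs with another library gRNA starting within 1 bp, 51 (22.5%) were counted, and of the other 285, 142 (49.8%) were. Over all positions in the library the shares were 31.5% (562 of 1782) and 51.9% (1103 of 2126). Length and crowding were not separated from each other.

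By 1-kb tile, the largest bulk shares lay in the 3' part of the gene, in the tiles that also held the most counted gRNAs. The tiles are named by their first base on chromosome 6, and gRNAs were placed by midpoint. The tile at 122712000, with 107 gRNAs of which 50 were counted, took 2.60% and 2.84% of bulk counts. The next one, 122713000, with 119 gRNAs of which 47 were counted, took 2.31% and 2.72%. The last tile, 122714000, which here ends at the 3' end of the gene, had 52 gRNAs of which 10 were counted and took 0.591% and 0.766%.

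Tiles 122711000 and 122713000 had larger shares in both GFP-negative libraries than in either bulk library. Tile 122711000 held 86 gRNAs, 33 of them counted, and went from 1.28% and 1.75% of bulk counts to 3.42% and 3.26% of GFP-negative counts (log2 ratio 1.14). Tile 122713000 went to 2.98% and 7.10% (log2 ratio 1.00, and 0.25 with GFP-negative replicate 2 left out), slightly above bulk in replicate 1 and far above it in replicate 2. Both had an exact permutation p of 0.333, the smallest possible, and 0.667 after Benjamini-Hochberg adjustment over the 6 tiles. In tile 122711000 the counts came from different gRNAs in the replicates. In GFP-negative replicate 1, chr6:122711649-122711670 held 45.6% of the tile's counts, and in replicate 2 chr6:122711623-122711644 held 40.4%. Each had no count in the other GFP-negative library. Without the most counted gRNA of each library the tile's log2 ratio was 0.63.

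The tile nearest the promoter went the other way. Tile 122709000, which here starts at 122709490, held 55 gRNAs of which 15 were counted. It took 0.992% and 0.779% of bulk and 0.221% and 0.549% of GFP-negative counts, with both GFP-negative libraries below both bulk libraries (log2 ratio −1.20, exact permutation p = 0.333, adjusted p = 0.667 over the tiles). With tiles counted from the first base of the region, the first tile reaches into tile 122710000, and for that different stretch the ratio was −0.23. The remaining 3 tiles overlapped between populations. Tile 122710000, with 93 gRNAs, took 1.27% and 2.01% of bulk and 0.312% and 2.28% of GFP-negative counts (log2 ratio −0.34, but 0.47 or −2.39 with GFP-negative replicate 1 or 2 left out). Tile 122712000 took 2.70% and 3.25% of GFP-negative counts (log2 ratio 0.13). Tile 122714000 took 0.349% and 0.792% (log2 ratio −0.25, and 0.22 with GFP-negative replicate 1 left out), and without the most counted gRNA of each library its log2 ratio was −3.22. There chr6:122714190-122714212 held 80.8% of the tile's counts in GFP-negative replicate 1, and chr6:122714191-122714213, which starts 1 bp away, held 95.6% in replicate 2.

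GFP-negative counts of the body sat on few gRNAs. The 10 most counted body gRNAs took 24.1% and 20.5% of body counts in bulk but 73.2% and 63.6% in GFP-negative cells. The top 10 lists of the GFP-negative libraries shared 0 gRNAs, and those of the bulk libraries shared 2. Over the 193 counted body gRNAs, log2 CPM (plus 1) correlated at 0.45 between bulk libraries and at 0.16 between GFP-negative libraries. No body gRNA exceeded 252 counts in bulk. In GFP-negative cells 14 exceeded 1000 counts, 4 in replicate 1 and 10 in replicate 2, and 7 of the 14 had no count in the other replicate. Another 5 had 1 to 28 counts there.

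Only 3 of the 512 body gRNAs (0.586%) had more CPM in both GFP-negative libraries than in both bulk libraries. Over the whole library 0.791% of gRNAs (31 of 3918) did, a number that includes the body, promoter and GFP-targeting gRNAs. At the other positions 12 of 2911 (0.412%) did. The body's share lay below the first and above the second, and the difference was not tested. Among counted gRNAs the shares were 1.55% in the body, 3.62% at the promoter, 0.959% at other positions and 1.85% over the library. Of the GFP-targeting gRNAs, 8 of 10 did. With totals scaled by TMM, which raises GFP-negative values relative to bulk, the number in the body was 9 (1.76%), beside 79 of 3918 (2.02%) over the library. None of the 3 was called enriched by edgeR.

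The highest of the 3 was chr6:122712947-122712969, which starts 5458 bp from the 5' end and ends 1664 bp before the 3' end of the gene. It had 1263 and 1899 CPM in bulk and 2255 and 9626 CPM in GFP-negative replicates 1 and 2 (88, 119, 322 and 1893 counts). The populations did not overlap, but the GFP-negative libraries differed more from each other than replicate 1 differed from bulk. The fitted log2 change was 3.68 (SE 3.01, edgeR adjusted p = 0.596), and DESeq2 gave adjusted p = 0.0515. EdgeR's fitted changes here and below use TMM scaling, whereas CPM values use total counts, so they differ in scale. With total counts in place of TMM the fitted change of this gRNA was 1.91. The other counted gRNA that starts within 10 bp, chr6:122712943-122712964, had 6 and 56 counts in bulk and 3 and 42 in GFP-negative cells.

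The second, chr6:122713012-122713033, was among the most counted body gRNAs in bulk. It had 2225 and 1740 CPM in bulk and 3522 and 4764 CPM in GFP-negative cells. These values rest on 155 and 109 counts in bulk and 503 and 937 in GFP-negative cells, so it was deeply counted in all 4 libraries. The fitted log2 change was 2.81 (SE 2.85, edgeR adjusted p = 0.654, DESeq2 adjusted p = 0.119), and 1.06 with total counts in place of TMM. Its counted neighbour chr6:122713021-122713043, which starts 9 bp farther on, had 55 and 49 counts in bulk and 1 and 2277 in GFP-negative replicates 1 and 2. The neighbour was thus nearly absent from one GFP-negative library and abundant in the other.

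The third, chr6:122711393-122711415, rested on fewer counts. It had 32 and 10 counts in bulk and 98 and 143 in GFP-negative cells, which is 459 and 160 CPM against 686 and 727 CPM. The fitted log2 change was 2.92 (SE 2.36, edgeR adjusted p = 0.596, DESeq2 adjusted p = 0.0676), and 1.19 with total counts in place of TMM. The bulk libraries differed more from each other than the GFP-negative ones did. Of the 8 library gRNAs that start within 10 bp of it, 1 was counted. That neighbour, chr6:122711398-122711420, had 19 and 70 counts in bulk and 1 and 146 in GFP-negative replicates 1 and 2. In CPM it lay below bulk within each replicate number (273 and 1117 against 7.0 and 742).

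In each tile, the gRNA with the highest mean CPM in GFP-negative cells was for the most part high in 1 replicate. The highest of the whole body, chr6:122713497-122713519 (1114 bp before the 3' end), had 675 and 1053 CPM in bulk and 119 and 20776 CPM in GFP-negative replicates 1 and 2. It lay below bulk in one replicate and far above it in the other (log2 change 5.38, SE 3.50, edgeR adjusted p = 0.509), and without GFP-negative replicate 2 the fitted change was −1.16. In tile 122711000, chr6:122711649-122711670 had 86.1 and 223 CPM in bulk and 15607 and 0 CPM in GFP-negative cells (log2 change 7.39, SE 4.20, edgeR adjusted p = 0.413). Without GFP-negative replicate 1 its fitted change was −6.24.

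The same held toward both ends of the region. In tile 122710000, chr6:122710218-122710240 had 474 and 463 CPM in bulk and 7.0 and 12605 CPM in GFP-negative cells (log2 change 5.52, SE 3.67, edgeR adjusted p = 0.520, −4.27 without GFP-negative replicate 2). Its neighbours chr6:122710211-122710233 and chr6:122710217-122710239 had 0 and 2 counts in GFP-negative replicate 1, and 530 and 751 in replicate 2. All 3 of these overlapping gRNAs were thus at most 2 counts in replicate 1 and at least 530 in replicate 2, whereas chr6:122710226-122710247, 8 bp on, had 255 and 0 counts. In tile 122714000, chr6:122714191-122714213 (420 bp before the 3' end) had 1220 and 1021 CPM in bulk and 196 and 7571 CPM in GFP-negative cells (adjusted p = 0.606 by edgeR, fitted change −0.85 without GFP-negative replicate 2). In tile 122709000, chr6:122709981-122710003 had 703 and 846 CPM in bulk and 455 and 2324 CPM in GFP-negative cells (log2 change 2.61, SE 2.55, edgeR adjusted p = 0.643). Without GFP-negative replicate 2 its fitted change was 0.92, which keeps its sign. In CPM these gRNAs show opposite directions in the replicates, and their GFP-negative means come mainly from 1 library each.

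Tested singly, 142 of the 512 body gRNAs had enough counts, among 1232 in the library. EdgeR's quasi-likelihood test called 0 of them enriched at an adjusted p under 0.05, as it did over the whole library (0.0%), and 0 body gRNAs had an unadjusted p under 0.05 in that direction. The test called none of the 9 tested GFP-targeting controls either, although all 9 had a higher fitted level in GFP-negative cells (median log2 change 5.87, smallest adjusted p = 0.306), so a lack of enriched calls says little about body gRNAs. DESeq2 called 3 enriched (2.11%), beside 3.57% over the library, and limma-voom 0 (0 also at an unadjusted p under 0.05). The 3 were chr6:122710218-122710240, chr6:122711649-122711670 and chr6:122713497-122713519, each high in 1 GFP-negative replicate only. None of them lay above bulk in both libraries. The median fitted log2 change was 0.11 over the 142 and −1.04 over all tested gRNAs. With total counts in place of TMM these medians were −1.68 and −2.80, so the sign of the body median depends on the scaling. It depends on the libraries too: the medians were −3.86 and −3.96 without GFP-negative replicate 1, and −3.91 and −3.67 without GFP-negative replicate 2, where the body median was the lower.

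Depletion in GFP-negative cells was the only change that edgeR called. Bulk counts alone carried 26 tested body gRNAs through the filter, as these had no count in either GFP-negative library. Of the 142 tested body gRNAs 11 (7.75%) were depleted, beside 6.01% (74 of 1232) over the library, and 30 at an unadjusted p under 0.05. DESeq2 called 30 (21.1%, beside 20.4%) and limma-voom 0 (6 at an unadjusted p under 0.05). The body's shares are close to the background in each test. With the replicate number as a block edgeR called 0. It also called 0 when bulk replicate 1 or bulk replicate 2 was left out, and 0 without the filter on low counts, so the calls ended in each of these fits. By tile, 4 of 22 tested gRNAs were called in 122710000 (18.2%), 4 of 39 in 122712000 (10.3%), 1 of 12 in 122709000, 1 of 23 in 122711000, 1 of 39 in 122713000 and 0 of 7 in 122714000.

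All 11, like all 74 depleted gRNAs of the library, had no count in either GFP-negative library, and the 11 had few in bulk. Each of the 11 thus passed the filter on low counts only through bulk, the population where it was higher. Filter and call draw on the same bulk values, so these calls are no independent sign of loss. The calls of smallest p among them included chr6:122712450-122712472, with 10 and 11 counts in bulk (144 and 176 CPM). Set against 3 counts per GFP-negative library it was at least 8.80-fold lower in total-count CPM (edgeR adjusted p = 0.0236). Its neighbour chr6:122712451-122712473, 1 bp on, had 28 and 7 counts in bulk and was at least 14.2-fold lower (adjusted p = 0.0491). In tile 122710000, chr6:122710886-122710908, chr6:122710893-122710915 and chr6:122710938-122710960 lie close together and had 17 and 9, 8 and 14, and 8 and 13 counts in bulk. These were at least 10.7-fold, 9.33-fold and 8.89-fold lower, with edgeR adjusted p of 0.0255, 0.0249 and 0.0236. The lower bounds of the other called gRNAs ran from 7.61-fold for chr6:122712252-122712273 to 14.4-fold for chr6:122713186-122713208. All bounds here and in the next paragraph use total-count CPM and the bulk mean, whereas the edgeR fit used TMM. The TMM factors were 1.78 and 1.89 in bulk and 0.552 and 0.537 in GFP-negative replicates 1 and 2. On the TMM scale the bounds would be smaller, so they are lower bounds for total-count CPM only. They also cover counting error only and not the spread between replicates. As described above, 7 body gRNAs had no count in one GFP-negative library and over 1000 in the other.

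The most abundant gRNAs without any GFP-negative count were not called by edgeR, although their bounds are larger. Near the 3' end, chr6:122714269-122714291 had 502 and 1708 CPM in bulk (35 and 107 counts) and was at least 61.0-fold lower (edgeR adjusted p = 0.116). In the tile nearest the promoter, chr6:122709945-122709966 had 1249 and 942 CPM in bulk and was at least 60.4-fold lower (edgeR adjusted p = 0.115), and chr6:122709531-122709552 had 818 and 718 CPM and was at least 42.4-fold lower. In the middle, chr6:122712337-122712359 had 818 and 830 CPM, the most even bulk pair of the group, and was at least 45.5-fold lower (edgeR adjusted p = 0.115). For chr6:122711706-122711727 the bulk values were 416 and 734 CPM and the bound 31.7-fold. DESeq2 called all 5, each with adjusted p = 0.0117.

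Without a test, 112 of 512 body gRNAs (21.9%) had fewer CPM in both GFP-negative libraries than in both bulk libraries, against 27.9% over the whole library (1094 of 3918). Among counted gRNAs this was 58.0% in the body, 54.8% at the promoter, 68.8% at other positions and 65.4% overall. With at least 10 counts asked for in each bulk library the number in the body was 59 of 107 (55.1%), beside 68.3% over the library (681 of 997). By tile it ran from 8 of 55 at 122709000 to 30 of 107 at 122712000. At the 5' edge of the region, the gRNA just inside, chr6:122709487-122709509, had 6 and 28 counts in bulk and none in GFP-negative cells, and the one just outside, chr6:122709473-122709495, had no count. At the 3' edge neither chr6:122714614-122714636, just inside, nor chr6:122714627-122714649, just outside, had a count in any library.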

How the data were processed

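Counts of gRNAs per library were used as deposited by the authors, taken as raw because every value is whole and library totals differ. Libraries were made by PCR from genomic DNA, per the labels' protocols, with positions on mm10 per the submitters' processing notes. The sources used here give neither the counting program nor whether positions count from 0 or 1. The labels mention no molecular identifiers, so reads are not independent molecules and the floor of 3 counts covers counting error only. The placeholder guide was left out of totals and tests.

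The whole Nanog table was fitted with edgeR 4.0.16 in R 4.3.3 (filterByExpr with minimum count 10, TMM, robust quasi-likelihood test, 2-sided, population as the only term, Benjamini-Hochberg at 0.05 over 1232 gRNAs). SE is the log2 change divided by the square root of F. DESeq2 1.42.0 and limma-voom (limma 3.58.1) were alternatives. On simulated data edgeR called 99 of 100 gRNAs raised 8-fold, 100 of 100 lowered 8-fold and 8 others. The simulated dispersion was set at 0.1 and not taken from these libraries, so that outcome does not carry over to them. In the data edgeR called 0 of the 9 tested GFP-targeting controls. Shares were compared by exact permutation over libraries in python 3.11.15.

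Both populations of a replicate number come from one replicate of the line, per the labels, and deviations from the population means correlated at 0.41 over 2 pairs. The members and lists were chosen with earlier results of these data known. Named gRNAs were the 10 largest changes called by edgeR, those above bulk in both GFP-negative libraries, the highest GFP-negative mean of each tile and the 5 most abundant in bulk without a GFP-negative count. Others were chosen after their values were seen. A planned comparison of coding and other gRNAs needs exons or a protein sequence and was not run. The other 3 reporter tables entered only the count of gRNAs.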

Additional observations from a re-analysis of the deposited data

How the results depend on the processing

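The number of body gRNAs depleted by edgeR was 11, within 1.5 times of that with RLE, TMMwsp or total-count scaling. It was 30 with DESeq2, 0 with limma-voom, 0 without the filter and 0 with the replicate block, and ran from 0 to 38 when 1 library was left out. The number enriched was 0, 3 with DESeq2, and 0 to 26 with 1 library left out (26 and 9 without GFP-negative replicate 1 or 2, where the lone library is assumed to vary like the bulk pair). Over all tested gRNAs the 74 depleted became 251 with DESeq2 and 0 with limma-voom, without the filter or with the block, and ran from 0 to 369 with 1 library left out. The 0 enriched became 44 with DESeq2 and ran from 0 to 133.

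With tiles counted from the first base of the region, each tile covers a shifted stretch, and the last covers only the 3' end of tile 122714000. The log2 share ratio was then −0.23 for the tile in the place of 122709000 and 0.65 for that of 122711000. It was 0.82 for that of 122712000 and −2.94 for that of 122714000. With tiles at whole kilobases but without the most counted gRNA of each library, the ratios of 122711000, 122712000 and 122714000 were 0.63, −0.34 and −3.22. The other alternatives moved the share ratios by less than the spread between replicates, which is itself wide with 2 libraries a population. With 1 library left out the ratio of all body gRNAs ran from 0.0041 to 0.79, of tile 122709000 from −2.001 to −0.69, of 122710000 from −2.39 to 0.47, of 122712000 from −0.01 to 0.26, of 122713000 from 0.25 to 1.498 and of 122714000 from −0.96 to 0.22. Non-overlapping body gRNAs numbered 9 rather than 3 above bulk with TMM-scaled totals, and 59 rather than 112 below bulk with at least 10 counts in each bulk library. Of 23 named gRNAs, the fitted change of 4 turned in sign with a GFP-negative library left out (−4.27 to 6.59 for chr6:122710218-122710240, −6.24 to 8.36 for chr6:122711649-122711670, −1.16 to 6.46 for chr6:122713497-122713519 and −0.85 to 4.59 for chr6:122714191-122714213). The causes were not tested. The depleted calls rest on 6 to 28 counts per bulk library.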
